A study of Homo sapiens with 6 samples.

Results

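TRA2A, TRA2B, SRSF10, SRSF11, SREK1, SON, SRRM1 and SRRM2 encode splicing proteins rich in arginine and serine that are related to the classical SR proteins. Their splicing events were taken by gene symbol from 5 deposited tables of junction reads, and those whose reads averaged 10 or more across the 6 libraries were kept. This gave 67 of the 66395 events that passed the same minimum, and 3 more events of these genes were listed with fewer reads. The study transfected NCI-H1975 cells, an established lung adenocarcinoma line, with a PCDNA3.1 plasmid carrying SAM68, whose gene is KHDRBS1. Each well received 2 µg of plasmid by lipofection for 48 h, and the controls, from the same line, received the empty PCDNA3.1 plasmid. RNA was sequenced in 3 control and 3 SAM68 libraries, and the question was which splicing choices differ when SAM68 is in excess.

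TRA2A and TRA2B are sequence-specific activators that bind purine-rich exonic elements, and SRSF10 is an SR-like protein whose activity depends on its phosphorylation. SRSF11 and SREK1 are SR-related proteins, SON and SRRM2 are large scaffold proteins of nuclear speckles, and SRRM1 is a coactivator that joins the exon junction complex. Many genes of this kind carry a poison exon, an exon with a stop codon whose inclusion sends the transcript to nonsense-mediated decay, and TRA2B protein is known to promote inclusion of the poison exon of its own transcript.

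Reads over the junctions of skipped-exon events came to 18114969, 19645856 and 18627563 for the controls and 19737729, 16951876 and 17007769 for SAM68, so depth differed little between groups. Libraries are numbered by their place in the deposited lists, which carry no replicate names. SAM68 library 3 stood apart from its group. Its chi-square per degree of freedom was 4.53 with SAM68 library 1 and 4.48 with SAM68 library 2. The other pairs within a group had 3.14 to 3.56. The study calls the 3 libraries of a group biological replicates and describes its data in general as from independent experiments, and p-values measure the spread between libraries. Junction reads of a gene were taken from its best-read event and scaled to 1000000 such reads (rpm), a measure of the transcript that carries no length correction and is not compared between genes. For KHDRBS1 they were 311 rpm, 328 rpm and 316 rpm in the controls and 1230 rpm, 1260 rpm and 1276 rpm in the SAM68 libraries. Every library labelled SAM68 stood above every control, with a log2 fold change of 1.98 (95% interval 1.88 to 2.07, n = 3 against 3, adjusted p = 1.08e-21 by limma). Of the 10 epithelial markers looked up, 4 had an event in the tables, with KRT18 the best read of them over the 6 libraries as a whole, and their sum ran from 733 rpm to 995 rpm. KRT8 had 520 rpm in control 1 and between 229 rpm and 253 rpm in the other 5 libraries. KRT18 had 471 rpm to 492 rpm in the controls and 521 rpm to 530 rpm in the SAM68 libraries. KRT7 had 3.02 rpm to 4.48 rpm in the controls and 1.26 rpm to 2.2 rpm in the SAM68 libraries. The groups overlapped for KRT8 and NAPSA. Of the other cell types, 1 of 5 leukocyte markers (CD68, 92.0 rpm to 104 rpm), 0 of 3 endothelial markers and 1 of 4 fibroblast markers (DCN, at most 1.43 rpm) had an event, and a gene without an event is not thereby shown to be silent.

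The level of an event is its PSI, the percent of the included form among the 2 forms of that event, after each form's reads are divided by its effective length. Where an exon has several versions, the PSI of a version is not its share of all transcripts. A skipped exon (SE) is in or out, A3SS and A5SS are choices between 2 acceptor or 2 donor sites, MXE is a choice between 2 exons, and RI is a retained intron. The 67 events were 44 SE, 10 A3SS, 7 A5SS, 3 MXE and 3 RI. TRA2A and SREK1 had 14 each, SRSF11 had 11, TRA2B and SRRM1 had 8 each, SRRM2 had 5, SRSF10 had 4 and SON had 3. Many of them share an exon or a junction and are not independent. PSI lay between 5% and 95% in 32 events, above 95% in 26 and below 5% in 9. In 6 of the 10 A3SS events the acceptors were 3 nt apart, the spacing of tandem acceptors.

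The SE events covered 37 distinct exons, all of them with AG before and GT after on the sense strand of GRCh38. Of these exons, 13 belonged to the canonical GENCODE 44 transcript and 24 did not. Among the 24, 14 brought a stop codon in the frame of the exon before them, and 19 brought a stop or a length that shifts the frame. Overlapping versions of an exon were counted singly here, among them TRA2A versions that share the stop at base 142. Exons for which the frame could not be set were counted as without a stop. The 6 sequences printed here are those that the results on poison exons turn on, each on the sense strand from 10 intron bases before the exon to its first in-frame stop. Capitals mark the AG of the acceptor and the stop codon. The positions, in GRCh38, are chr3:185931772-185931862 on the minus strand for TRA2B, chr7:23522289-23522442 on the minus strand for TRA2A, chr1:70231849-70231908 on the plus strand for SRSF11, chr5:66158799-66158912 on the plus strand for SREK1, chr1:24647069-24647084 on the plus strand for SRRM1 and chr16:2768495-2768517 on the plus strand for SRRM2.
TRA2B: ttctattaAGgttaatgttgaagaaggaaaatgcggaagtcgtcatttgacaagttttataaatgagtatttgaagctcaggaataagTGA
TRA2A: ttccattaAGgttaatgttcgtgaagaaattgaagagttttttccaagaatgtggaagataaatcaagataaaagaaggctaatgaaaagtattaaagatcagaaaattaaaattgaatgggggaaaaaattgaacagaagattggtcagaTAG
SRSF11: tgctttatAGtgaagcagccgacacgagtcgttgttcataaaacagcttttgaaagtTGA
SREK1: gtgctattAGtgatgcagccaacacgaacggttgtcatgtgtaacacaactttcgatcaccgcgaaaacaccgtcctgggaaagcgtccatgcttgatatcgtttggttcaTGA
SRRM1: gatttaaaAGgccTGA
SRRM2: gtctctacAGaggacagaacTAG

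The stop codon begins at base 79 of the TRA2B exon, 142 of the TRA2A exon, 48 of the SRSF11 exon, 102 of the SREK1 exon, 4 of the SRRM1 exon and 11 of the SRRM2 exon. The TRA2A exon of 301 nt and the SREK1 exon of 124 nt are annotated in protein-coding transcripts as well as in ones subject to nonsense-mediated decay. TRA2A and TRA2B are paralogs, and the first 50 bases of their poison exons hold the same base at 23 positions without gaps, with a longest shared run of 12 bases in the whole exons. The exons of SRSF11 and SREK1 hold the same base at 24 of their first 50 positions, with a longest shared run of 14 bases. The motif GAAGAA, a purine-rich sequence of the kind TRA2 proteins bind, was searched on the sense strand of each exon, overlapping matches included. It stood 3 times in the 276-nt TRA2B exon, and 1.17% of the 426 skipped exons within 5% of this length hold as many. It stood 4 times in the 301-nt TRA2A exon, and 1.18% of 340 exons of like length hold as many. In all, 7 of the 24 exons outside the canonical transcripts held GAAGAA, but 4 of the 7 are overlapping versions of the TRA2A exon. With overlapping versions joined, 4 of 19 places held it, against 12.5% of the 38685 distinct skipped exons in the tables, which are of other lengths and are not joined. The motif TTTAAA, of the A/U-rich kind SAM68 is known to bind, stood within 200 intron bases on either side of 17 of the 24 exons, or 13 of the 19 places, and of 35.7% of all exons, on the sense strand. The TRA2B exon had 3 such matches and the SRSF11 exon of 117 nt had 0. A match of letters is not a binding site.

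No event of the 8 genes passed the test. The quasi-binomial test, with the dispersion moderated by limma, required an adjusted p under 0.05 and a PSI difference of at least 10 points. It called 0 of the 67 events and 20 of all 66394 events tested, or 0.0301%, and the smallest adjusted p among the 67 was 0.789. At an unadjusted p under 0.05 stood 6 of the 67 events (8.96%), against 3.64% of all events. With a minimum of 20 reads these were 3 of 56 events, against 3.74% of all events. The groups did not overlap in 5 of 67 (7.46%), against 6.12% of all events with reads in every library. These shares rest on few events with shared junctions, and the count at an unadjusted p under 0.05 was 2 without control 1 or without SAM68 library 1 and 3 without SAM68 library 2 (3.2%, 3.13% and 3.31% of all events). The count over all events was 9 without SAM68 library 1 and 12 without SAM68 library 3. Other tests of the same reads called 0 of the 67 with each event's own dispersion (4 at an unadjusted p under 0.05, against 2.87% of all events) and 0 by a limma fit to logit PSI (2 at an unadjusted p under 0.05, against 4.59% of all events). A likelihood ratio test on pooled reads, which takes no account of the spread between libraries, called 4 of the 67 and 1353 of all events.

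The PSI was higher in SAM68 libraries in 38 of the 67 events and lower in 29, with a median difference of 0.199 points, against 0.005 points over all events. The median size of the difference was 1.72 points, against 1.24 points over all events, and 6 of the 67 (8.96%) differed by at least 10 points, against 7.16% of all. The events had a median of 187 reads per library, against 111 over all events. A p above the threshold does not show that an event was equal in both groups, and each interval gives the range of differences that these reads allow.

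**Figure D1:**
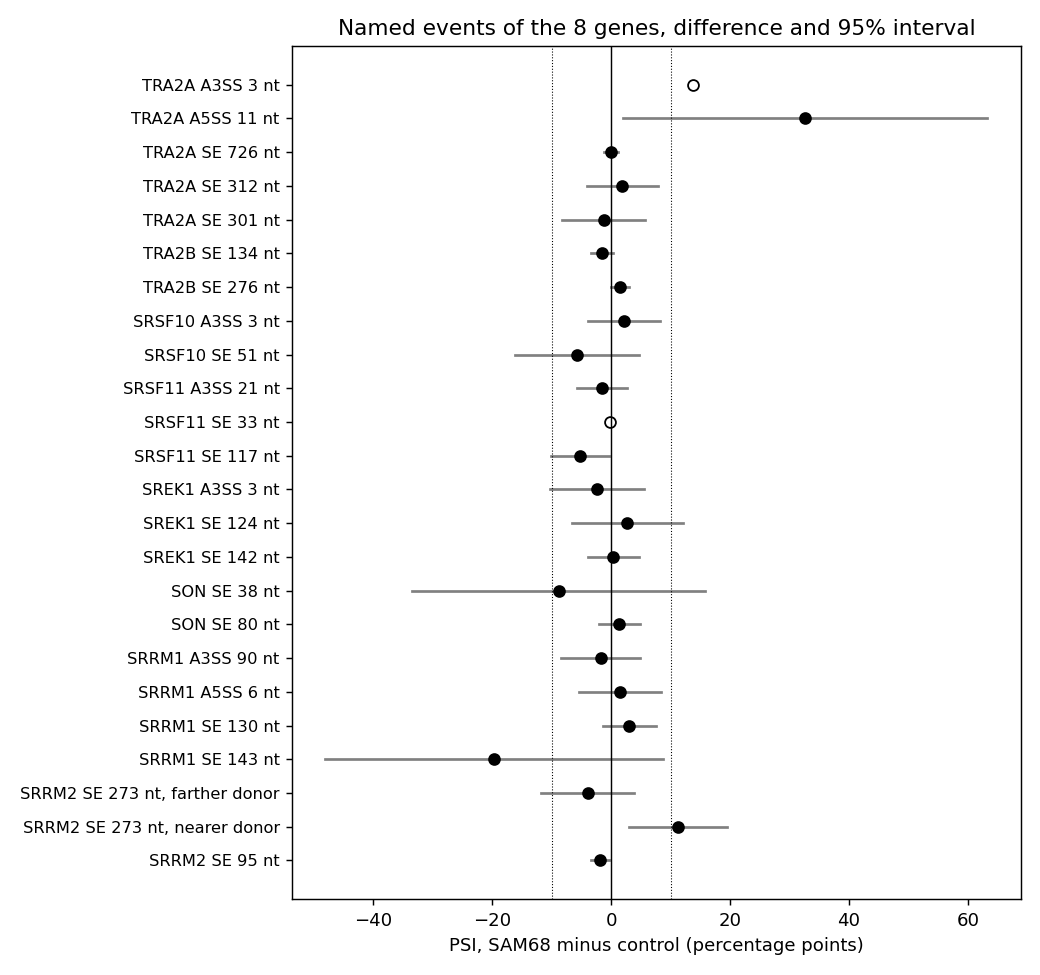
Difference in PSI (SAM68 minus control, percentage points) for the 24 named events of the 8 genes, labelled by gene, type and length of the alternative part (and, for SRRM2 exon 2, by which exon 1 donor is nearer to it), with 95% intervals as lines, hollow points where a group sits at 0% or 100% and no interval was drawn, and dotted lines at 10 points either way. The widest intervals belong to the TRA2A A5SS of 11 nt, the SRRM1 exon of 143 nt and the SON exon of 38 nt, which had a mean of 15, 18 and 10.5 reads per library.

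The poison exon of TRA2B, 276 nt at chr3:185931577-185931852 on the minus strand between exons 1 and 2, was the best-read exon of its kind among the 8 genes, with a mean of 1099 reads. Its PSI was 5.43%, 6.25% and 4.90% in the controls and 7.24%, 8.04% and 5.77% in the SAM68 libraries. Most SAM68 libraries lay above the controls, but SAM68 library 3 lay below control 2, so the groups overlapped. The mean was 5.53% ± 0.678 (SD, n = 3) against 7.02% ± 1.15 (SD, n = 3). The difference of 1.49 points (95% interval 0.0004 to 2.99) had an exact permutation p of 0.2, two-sided, where 3 against 3 allows no p below 0.1. Its adjusted p was 0.789 by the quasi-binomial test with limma, and the difference was 0.981 points without SAM68 library 2. With PSI from undivided reads, without effective lengths, it was 2.64 points.

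The forms of this event showed which reads differed. Reads of the included exon were 20.7 rpm, 23.4 rpm and 19.1 rpm in the controls and 22.4 rpm, 25.1 rpm and 19.8 rpm in the SAM68 libraries, so the groups were interleaved. Reads of the junction from exon 1 to exon 2, which skips the exon, were 180 rpm, 176 rpm and 185 rpm in the controls and 143 rpm, 144 rpm and 162 rpm in the SAM68 libraries, all below the lowest control. The mean of the included form was 107% of control, and that of the skipped form 83.0%. Exon 2 itself, 134 nt at chr3:185926601-185926734, had a PSI of 95.4% ± 0.397 in the controls and 93.8% ± 1.65 in the SAM68 libraries (SD, n = 3 each), a difference of -1.60 points (95% interval -3.45 to 0.263, exact permutation p = 0.3), and it shares the junction from exon 1 to exon 2. That difference was -0.838 points without SAM68 library 1 and -2.47 points without SAM68 library 2. Without effective lengths it was -0.847 points.

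Junction reads along TRA2B did not all stand on the same side. The best-read event, exon 2, gave 401 rpm, 376 rpm and 376 rpm in the controls and 308 rpm, 325 rpm and 354 rpm in the SAM68 libraries. All SAM68 libraries were below all controls, with a log2 fold change of -0.228 (95% interval -0.349 to -0.106) and an adjusted p of 0.0805 by limma, which missed the threshold of 0.05. Without SAM68 library 3 the log2 fold change was -0.282 with an adjusted p of 0.0144 by limma, still short of the called size of 1, while leaving out any other library gave adjusted p-values of 0.116 to 0.371 by limma. Events at the 5′ end, the 276-nt exon and exon 2, both stood at 85.5% of control in total reads. Events further along stood at 106% for exon 4, 109% for its longer form and 110% for exons 6 and 7, while the mutually exclusive pair of exons 6 and 7 stood at 105% and an acceptor pair 3 nt apart further on, at chr3:185918436-185918438, at 99.7%, each with overlapping groups. The event of the longer form shares its skipping reads and the junction after exon 4 with the event of exon 4, so it is not a separate measure of that form. With the reads of all SE events of the gene summed, the log2 fold change was -0.047, so the difference seen at the junctions around exon 2 was not seen in the sum. The event of exons 6 and 7 taken as a mutually exclusive pair had a PSI for exon 6 of 87.8% ± 1.49 in the controls and 89.7% ± 1.29 in the SAM68 libraries (SD, n = 3 each), a difference of 1.96 points (95% interval -1.16 to 5.08) with an adjusted p of 0.828 by the quasi-binomial test with limma. It was chosen after its values were seen, for its groups that did not overlap.

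**Figure D2:**
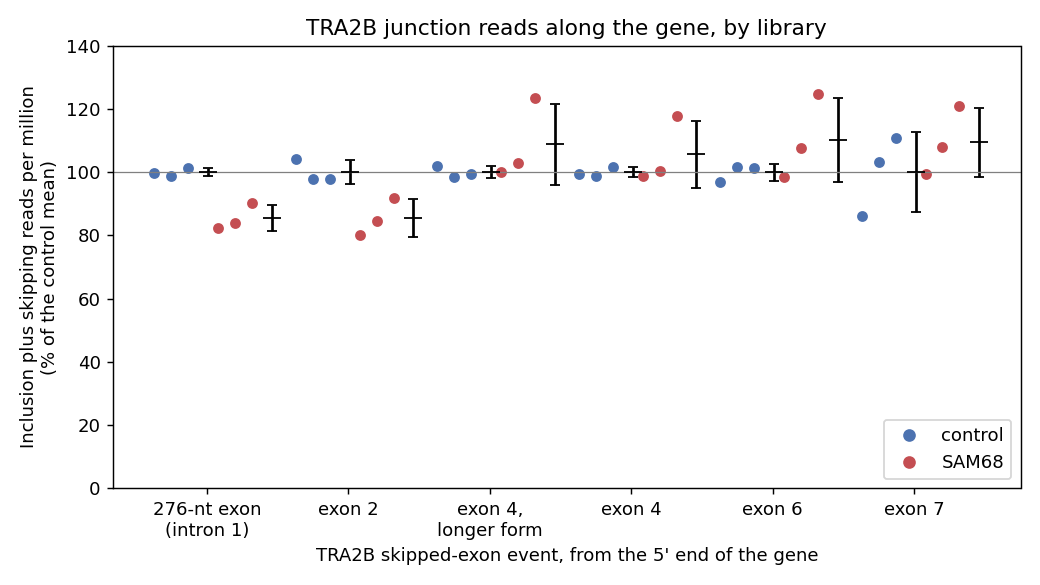
Total junction reads (rpm) of 6 TRA2B skipped-exon events, ordered from the 5′ end of the gene and given as a percent of the control mean, with 1 point per library and the mean and SD in black beside each group. The SAM68 means lie at 85.5% for both events at the 5′ end and between 106% and 110% for the 4 events further along, among which exon 4 and its longer form share reads.

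The poison exon of TRA2A, the paralog of TRA2B, begins at the acceptor at chr7:23522432 on the minus strand and ends at several donor sites. Versions of 301 and 312 nt carry the stop at base 142, and a version of 79 nt ends before it and holds no in-frame stop itself. The 301-nt version had a PSI of 13.6%, 16.1% and 4.93% in the controls and 11.6%, 10.1% and 9.09% in the SAM68 libraries. The SAM68 libraries fell inside the wide range of the controls, of which control 3 was the lowest. The difference was -1.29 points (95% interval -8.32 to 5.74, exact permutation p = 0.8), and it turned to 1.00 point without control 2 and was -4.61 points without control 3. With the reads of the events of this exon summed it was -2.91 points. The 312-nt version, which shares the skipping reads, had a PSI of 12.1% ± 4.60 in the controls and 13.9% ± 1.48 in the SAM68 libraries (SD, n = 3 each), and its difference of 1.87 points turned to -0.717 points without control 3 and was 3.69 points without control 2. From reads not divided by effective lengths this difference was 3.12 points. A 726-nt version, which runs on through the following intron to the end of exon 2, had a PSI of 99.8% in both groups, made mostly of reads over the junction after exon 2 that transcripts without the poison exon share.

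The choice between the last donor sites of this exon was among the 6 events at an unadjusted p under 0.05, and was chosen after its values were seen. It is an A5SS event of 11 nt at chr7:23522121-23522131, with a mean of 15 reads. Its PSI, the share of the 312-nt form against the 301-nt form, was 48.1%, 41.0% and 73.6% in the controls and 84.8%, 92.3% and 83.6% in the SAM68 libraries. All SAM68 libraries lay above all controls, with control 3 the nearest. The longer form had 23 of 42 reads in the controls and 42 of 48 reads in the SAM68 libraries. The difference was 32.7 points (95% interval 2.04 to 63.3), with an unadjusted p of 0.0364 and an adjusted p of 0.849 by the quasi-binomial test with limma, and an exact permutation p of 0.1. A TRA2A acceptor pair 3 nt apart, at chr7:23505811-23505813 and also chosen after its values were seen, had a PSI of 70.5%, 88.1% and 100% in the controls and 100% in all SAM68 libraries, so that control 3 equalled them (difference 13.8 points, mean of 16.7 reads, exact permutation p = 0.4). Without control 1 that difference was 5.96 points.

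SRSF11 carries a poison exon of 117 nt at chr1:70231859-70231975 on the plus strand. Its PSI was 20.3%, 16.7% and 13.6% in the controls and 11.7%, 11% and 12.3% in the SAM68 libraries. All SAM68 libraries lay below all controls, and the controls were spread more widely. The mean was 16.9% ± 3.37 against 11.7% ± 0.657 (SD, n = 3 each), a difference of -5.21 points (95% interval -10.1 to -0.302). The exact permutation p was 0.1, the smallest possible. The quasi-binomial test with limma gave an unadjusted p of 0.0296 and an adjusted p of 0.789. Without 1 library the difference ranged from -6.85 to -3.49 points.

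Reads of the included form were 16.9 rpm, 12.9 rpm and 8.87 rpm in the controls and 8.52 rpm, 7.34 rpm and 6.97 rpm in the SAM68 libraries, so that control 3 and SAM68 library 1 nearly met. Their mean was 59.1% of control, while that of the skipping reads was 92.8%. A neighbouring exon of 109 nt at chr1:70231095-70231203, which also brings a stop, was rarely included, with a PSI of 1.00% ± 0.292 in the controls and 1.2% ± 1.66 in the SAM68 libraries (SD, n = 3 each). The pair of acceptors 21 nt apart near the end of the gene, at chr1:70249931-70249951, had a PSI of 7.53% ± 0.485 and 6.01% ± 1.99 (SD, n = 3 each), with overlapping groups, and its difference of -1.52 points was -0.523 points without SAM68 library 1 and -2.52 points without SAM68 library 3. An exon of 33 nt at chr1:70222766-70222798 was read in control 3 alone, with 2 reads, and stood at 0 in the other 5 libraries.

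SREK1 carries an exon of 124 nt at chr5:66158809-66158932 on the plus strand, whose start resembles that of the SRSF11 exon. Its PSI was 16.3%, 18.1% and 12.2% in the controls and 24.2%, 18.9% and 11.7% in the SAM68 libraries. The SAM68 libraries held both the highest and the lowest of the 6 values. The difference was 2.72 points (95% interval -6.56 to 12.0, exact permutation p = 0.5) and turned to -0.259 points without SAM68 library 1, while it was 5.99 points without SAM68 library 3 and 4.56 points with the reads of the events of this exon summed. An acceptor pair 3 nt apart before exon 11, at chr5:66177514-66177516, had a PSI of 87.9% ± 2.96 in the controls and 85.5% ± 4.02 in the SAM68 libraries (SD, n = 3 each), a difference of -2.37 points that was -0.0821 points without SAM68 library 2 and -4.00 points without control 1. The shorter exon 11 that this pair makes, 142 nt, had a PSI of 98.6% and 99.0% on average against skipping of the exon. In the controls this event had 140, 124 and 137 included reads, while the pair gave the shorter form 20, 15 and 15. Its included reads thus lay mostly over the junction after exon 11, which the longer form shares, and its PSI is not the share of the shorter form.

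SRSF10 was read mainly at the acceptors of exon 5 and at exon 5 itself, with 1 further acceptor pair at chr1:23975078-23975080 at a mean of 14 reads. The acceptor pair 3 nt apart at chr1:23971624-23971626 on the minus strand, the best-read event of the gene, had a PSI of 71.4%, 73.2% and 74.6% in the controls and 75.0%, 77.9% and 72.8% in the SAM68 libraries. SAM68 libraries 1 and 2 were above all controls, and SAM68 library 3 was among them (difference 2.17 points, 95% interval -3.86 to 8.19, exact permutation p = 0.4). The difference was 0.829 points without SAM68 library 2 and 3.40 points without SAM68 library 3. The shorter form of exon 5, 51 nt, had a PSI of 92.2% ± 5.65 in the controls and 86.5% ± 4.77 in the SAM68 libraries (SD, n = 3 each). This sets the form against skipping of exon 5 and is not its share against the longer form. The difference was -5.69 points (95% interval -16.1 to 4.75) with overlapping groups, and it was -3.07 points without SAM68 library 1 and -8.72 points without control 2.

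SON carries an exon of 80 nt at chr21:33572551-33572630 on the plus strand, which shifts the frame. Its PSI was 3.14%, 4.54% and 6.13% in the controls and 4.02%, 6.57% and 7.34% in the SAM68 libraries. The groups overlapped, with the lowest of the 6 values in a control and the highest in a SAM68 library (difference 1.37 points, 95% interval -2.03 to 4.77, exact permutation p = 0.4). Without control 1 the difference was 0.636 points, and without SAM68 library 1 it was 2.35 points. From reads not divided by effective lengths it was 2.06 points. An exon of 38 nt that joins to it, at chr21:33571751-33571788, had a mean of 10.5 reads, and included reads were seen in 2 controls and 1 SAM68 library. The large exon 3 of SON, 5916 nt, was included at 99.3% in the controls and 99.6% in the SAM68 libraries.

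The SRRM1 poison exon, 130 nt at chr1:24647079-24647208 on the plus strand, meets its stop at base 4. Its PSI was 6.52%, 7.43% and 10.1% in the controls and 9.07%, 14.8% and 9.41% in the SAM68 libraries. SAM68 library 2 was above the rest, and the other SAM68 libraries lay below control 3. The difference was 3.07 points (95% interval -1.46 to 7.59, exact permutation p = 0.3), and leaving out SAM68 library 2 made it 1.23 points. Without effective lengths it was 5.04 points. An exon of 143 nt at chr1:24648024-24648166, in an event that sets it after the 130-nt exon, was chosen after its values were seen. It had a PSI of 0%, 47.4% and 30.4% in the controls and 0%, 6.90% and 11.8% in the SAM68 libraries, with a mean of 18 reads. Its skipping reads, which join the 130-nt exon to the next exon, numbered 6, 5 and 8 in the controls and 23, 27 and 15 in the SAM68 libraries. The PSI differed by -19.7 points (95% interval -48.1 to 8.65), with an unadjusted p of 0.0295 and an adjusted p of 0.789 by the quasi-binomial test with limma, but an exact permutation p of 0.4. The difference was -9.00 points without control 2 and -32.7 points without control 1.

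Other SRRM1 choices were read more deeply. The donor pair 6 nt apart at chr1:24655124-24655129 had a PSI of 79.2% ± 2.11 in the controls and 80.6% ± 4.24 in the SAM68 libraries, and the acceptor choice of 90 nt at chr1:24651409-24651498 had 92.8% ± 3.39 and 91.0% ± 2.83 (SD, n = 3 each). Both had overlapping groups. The difference at the donor pair, 1.47 points, turned to -0.976 points without SAM68 library 3 and was 2.75 points without SAM68 library 2. That of the acceptor choice, -1.79 points, was -0.218 points without control 1 and -3.59 points without control 2. From reads not divided by effective lengths it was -1.13 points.

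SRRM2 had the smallest unadjusted p of the 67 events. Its poison exon of 95 nt at chr16:2768505-2768599 on the plus strand is annotated only in transcripts subject to nonsense-mediated decay. The PSI was 3.16%, 2.41% and 1.42% in the controls and 0.380%, 0.540% and 0.350% in the SAM68 libraries. Every SAM68 library lay below every control. The included form had 14, 15 and 7 reads in the controls and 2 reads in each SAM68 library, against 249, 353 and 282 skipping reads in the controls and 307, 214 and 332 in the SAM68 libraries. The difference was -1.91 points (95% interval -3.37 to -0.448), with an unadjusted p of 0.00823 and an adjusted p of 0.789 by the quasi-binomial test with limma, and an exact permutation p of 0.1. Reads of the included form were 17.6% of control in rpm, while skipping reads were 102%. The size is under the 10 points needed for a call, which an exon included this rarely in the controls cannot lose. Without effective lengths the difference was -3.22 points.

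Exon 2 of SRRM2, 273 nt at chr16:2756334-2756606, was read behind 2 forms of exon 1, whose donor sites at chr16:2752846 and chr16:2752854 lie 8 nt apart. Behind the donor nearer to exon 2, at chr16:2752854, its PSI was 76.6%, 88.9% and 80.8% in the controls and 91.5%, 91.9% and 96.5% in the SAM68 libraries, all above the highest control. The difference was 11.2 points (95% interval 2.97 to 19.4), with an unadjusted p of 0.0139 and an adjusted p of 0.789 by the quasi-binomial test with limma, and this event was chosen after its values were seen. With PSI from reads not divided by effective lengths the difference was 6.43 points. Behind the donor farther from exon 2, at chr16:2752846, the PSI was 70.7%, 71.8% and 62.5% in the controls and 64.2%, 60.7% and 68.2% in the SAM68 libraries, with overlapping groups and a difference of -3.97 points (95% interval -11.8 to 3.85). That difference was -2.14 points without SAM68 library 2 and -6.89 points without control 3. The events share the junction from exon 2 to exon 3, and with their reads summed the difference was 0.732 points.

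**Figure D3:**
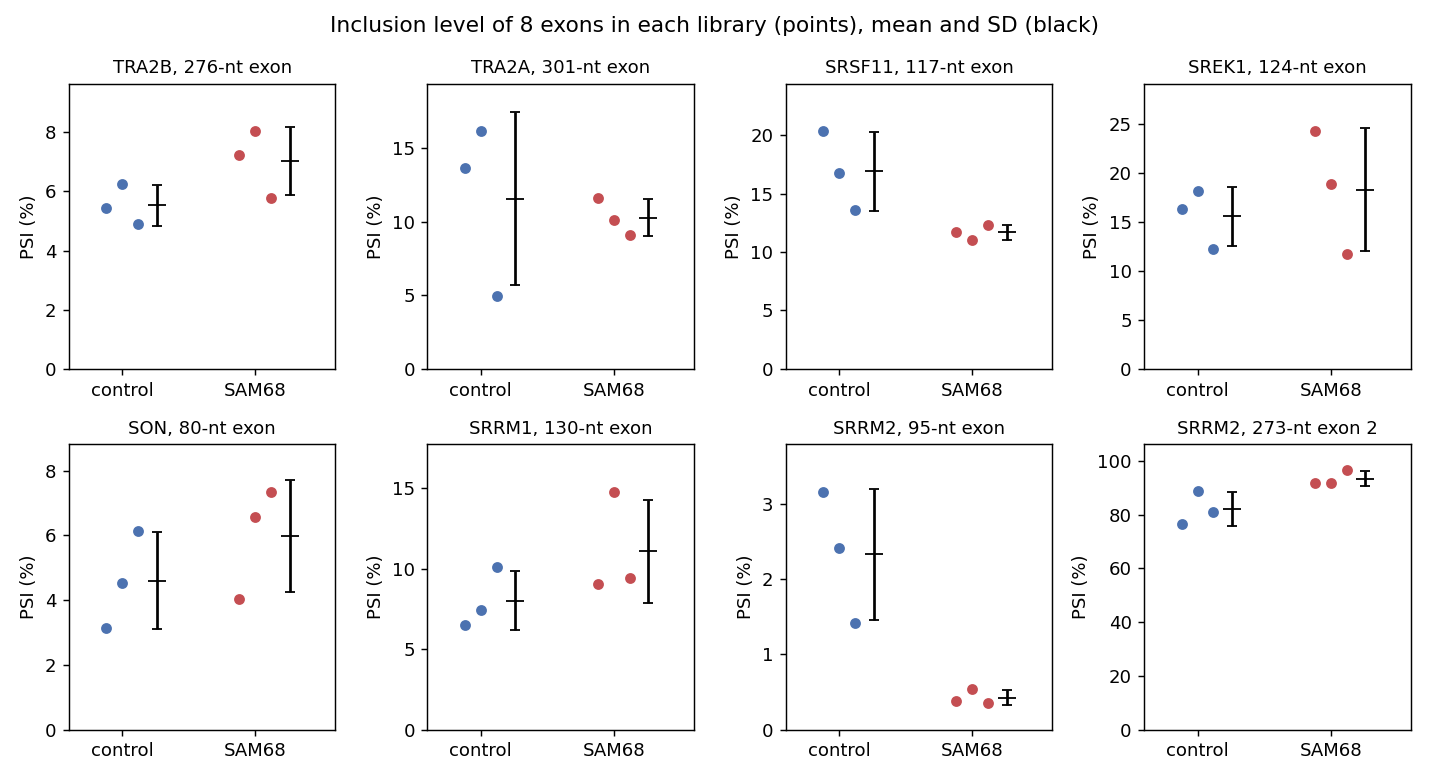
PSI in percent of 8 exons in each of 3 control and 3 SAM68 libraries (points), with the mean and SD in black beside each group, on an axis of its own for each exon, where the last panel is SRRM2 exon 2 read behind the exon 1 donor nearer to it. The groups do not overlap for the SRSF11 exon of 117 nt and both SRRM2 exons, and they overlap for the other 5.

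Junction reads of the 8 genes were described next, as the nearest measure of transcript level in these tables. The limma fit required an adjusted p under 0.05 and a log2 fold change of at least 1 either way. It called 0 of the 8 genes and 5 of 10146 genes tested (0.0493%), and 2 of the 8, TRA2B and SRRM2, stood at an unadjusted p under 0.05, against 12.1% of all genes. The groups did not overlap in 3 of the 8, TRA2B, SON and SRRM2, against 16.8% of all genes. The log2 fold change was below 0 in 7 of the 8, against 57% of all genes, and its median was -0.192, against -0.035 over all genes. With median-of-ratios scaling it was below 0 in the same number, 7 of 8, against 50.9% of all genes. With the reads of all SE events summed it was below 0 in 6 of 8, SRRM1 stood at 0.117 and the median was -0.073, so the side on which a gene stood depended in part on the event that stood for it.

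For SRRM2 the junction reads were 67.4 rpm, 73.5 rpm and 61.6 rpm in the controls and 55.7 rpm, 59.3 rpm and 58.2 rpm in the SAM68 libraries, all below the lowest control (log2 fold change -0.221, 95% interval -0.427 to -0.015, adjusted p = 0.375 by limma). For SON they were 119 rpm, 121 rpm and 113 rpm in the controls and 110 rpm, 109 rpm and 106 rpm in the SAM68 libraries, also without overlap (log2 fold change -0.118, 95% interval -0.277 to 0.041, adjusted p = 0.576 by limma). With all SE events summed the log2 fold changes were -0.109 for SRRM2 and -0.038 for SON. Single events differed too, since the total reads of the SON exon of 80 nt stood at 113% of control, and those of the SRRM2 exons of 63 nt and 95 nt at 100% and 98.3%. SRSF11, SREK1, SRRM1 and TRA2A had log2 fold changes of -0.166, -0.219, -0.219 and -0.12 with overlapping groups. Leaving out a SAM68 library moved SREK1 to -0.334 (library 3), SRRM1 to -0.125 (library 2) and TRA2A to -0.016 (library 1) or -0.188 (library 3). SRSF10 stood above 0, at 0.052 (95% interval -0.177 to 0.281), and turned to -0.030 without SAM68 library 3 and to 0.171 without SAM68 library 1.

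**Figure D4:**
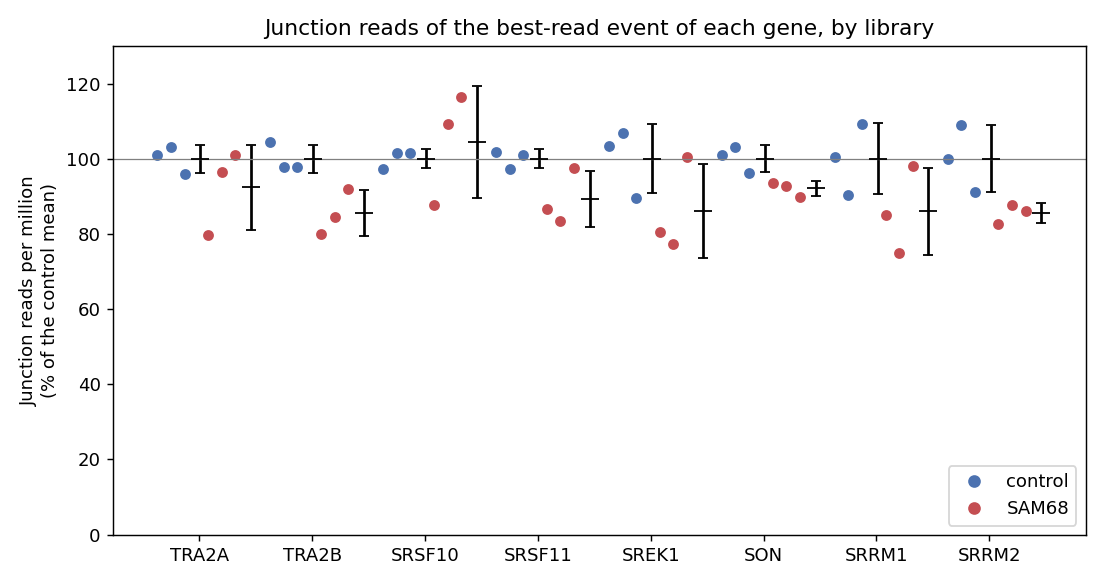
Junction reads (rpm) of the best-read event of each of the 8 genes, as a percent of the control mean, with 1 point per library and the mean and SD in black beside each group. TRA2B, SON and SRRM2 show groups that do not overlap, with SAM68 means at 85.5%, 92.1% and 85.5% of control, and SRSF10 alone has a SAM68 mean above control, at 104%.

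Genes of related function were counted in the same fits, in which all genes had a median log2 fold change of -0.035 and 3.64% of all events stood at an unadjusted p under 0.05. An adjusted p under 0.05 by limma was reached by 42 of all 10146 genes. Of 10 classical SR proteins, 8 were tested by junction reads and 0 were called by limma, with a median log2 fold change of -0.06, and 0 of their 45 events were called, with 3 (6.67%) at an unadjusted p under 0.05. Of 7 kinases of SR proteins, 6 were tested and 0 called, with a median of -0.125, and 0 of their 50 events were called, with 2 (4%) at an unadjusted p under 0.05. Of 28 partners with RS domains or in the exon junction complex, 27 were tested and 0 called, with a median of -0.125 and PNN alone at an adjusted p under 0.05 (log2 fold change -0.404, adjusted p = 0.0341 by limma, named after its values were seen), and 0 of their 232 events were called, with 14 (6.03%) at an unadjusted p under 0.05. Of 10 genes known as targets of TRA2, SRSF10 or SON, 9 were tested and 0 called, with a median of -0.027, and 0 of their 134 events were called, with 2 (1.49%) at an unadjusted p under 0.05.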

How the data were processed

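The authors transfected the cells, sequenced RNA from 3 libraries per group and aligned the reads to GRCh38, with CASAVA 1.4, fastp 0.20.0 and HISAT2 2.1.0 named in the sample records, and ran rMATS (version and annotation not stated). The deposited tables hold, as the authors' raw counts, the junction reads of both forms in lists of 3 values per group, the effective lengths, and inclusion levels as a fraction per library, which were used to check the counts. They also hold the p-value, FDR and level difference of the authors' test, which were not used. The lists name no group. The first was taken as control and the second as SAM68 from the paper's labelling, and the KHDRBS1 reads lie on the sides that this gives.

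The tables list 78336 events. In the A3SS table a spreadsheet had regrouped digits, and there 162 events were recovered, 113 left out and 679 taken as printed where another reading was possible, none of them of the 8 genes. The gene symbols are those of the files, and 11618 of 11653 gene IDs were found in GENCODE 44. PSI came from counts divided by effective lengths, and for MXE it refers to the exon nearer the 5′ end. Events averaging 10 or more reads per library were tested with a quasi-binomial F test on the included and skipped counts. The Pearson dispersion was moderated within each event type with squeezeVar (limma 3.58.1, R 4.3.3) and not taken below 1, and p-values were adjusted by Benjamini-Hochberg within the type. The prior of this moderation, with a trend, was estimated from events with at least 20 reads of the rarer form, and events below took the prior at 20. This departs from the plan, in which all events of a type entered without a trend, and was chosen after the data were seen, when the planned form recovered too few of the changes put into simulated data. Minimums of 6, 20 and 60 reads were compared on simulated and on the real data before 20 was kept. The planned form called 17 of all events and 0 of the 67, with 8 of the 67 and 8.42% of all events at an unadjusted p under 0.05. Intervals of 95% use the larger of the event's own and the moderated dispersion.

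Gene reads were log2(rpm + 0.5) of the best-read event, fitted by limma with a trend. Single values were also compared by exact permutation. Both tests were tested on simulated data. Libraries were not paired or blocked. Python 3.11.15, pandas 2.3.3 and pysam 0.24.0 read the files and the genome, and matplotlib 3.10.9 drew the plots.

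The members and lists were chosen with earlier results of these data known. Events were named if called or at an unadjusted p under 0.01, if among the 2 best-read distinct events of a gene with a PSI between 5% and 95%, or if the best-read SE exon without a protein-coding transcript. This named 20 events, and 4 more were added after their values were seen, as those left at an unadjusted p under 0.05. Alternatives covered the read minimum, the dispersion, the test, effective lengths, the adjustment, the PSI limit, summed exons, left-out libraries and, for genes, the event, pseudocount, filter and scaling.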

Additional observations from a re-analysis of the deposited data

How the results depend on the processing

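Most other settings tested the same number of events of the 8 genes, 67. The number was 56 with a minimum of 20 reads, 60 with reads of the same exon summed, 68 without control 2 and 70 without a minimum. Of the events tested 0 were called, except in the likelihood ratio test on pooled counts. That test called 4 (SRRM1 exon of 143 nt, SRRM2 exon 2 behind the nearer exon 1 donor, and the TRA2A A3SS of 3 nt and A5SS of 11 nt). The count over all events, 20 as reported, was 1353 in that test, 2 with each event's own dispersion, 3 by a limma fit to logit PSI and 43 without a limit on the PSI difference. With the planned dispersion, moderated over all events without a trend, it was 17. Among dispersion settings added after the data were seen, it was 37 with a trend over all events, 93 with dispersions raised to 1 first, and 35 and 14 with the prior from events with at least 6 and 60 reads of the rarer form, and the 67 events at an unadjusted p under 0.05 numbered, from the planned setting on, 8, 7, 8, 7 and 6, against 8.42%, 5.78%, 7.17%, 5.1% and 3.47% of all events. Leaving out 1 library gave 9 to 28 over all events.

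Of 365 single values under other settings (KHDRBS1 aside), 312 equal the reported value, mostly because the setting changes the test and not the difference, so their side of 0 says nothing of stability. Of these, 4 were newly called, in the pooled test. Of the other 53, 2 reversed, SRRM2 exon 2 behind the farther exon 1 donor (0.7319 points with reads of the same exon summed) and the SRRM1 log2 fold change (0.117 with all SE events summed). The cause was not tested. Without effective lengths the differences kept their side of 0, but some moved by over 1.5 times, as 2.636 points for the TRA2B exon of 276 nt, -0.8469 for TRA2B exon 2, 3.117 for the TRA2A version of 312 nt, 2.061 for the SON exon of 80 nt, 5.038 for the SRRM1 exon of 130 nt, -1.131 for the SRRM1 acceptor choice of 90 nt, 6.426 for SRRM2 exon 2 behind the nearer donor and -3.216 for the SRRM2 exon of 95 nt. In the pooled test 3 more named events had an adjusted p under 0.05 with less than 10 points, the TRA2B exon of 276 nt (0.0306), the SRSF11 exon of 117 nt (0.0124) and the SRRM2 exon of 95 nt (0.000441). Of 190 values with 1 library left out, 11 reversed, all of them in events or genes that were not called. The ranges in points were -1.034 to 1.37 for the SREK1 exon of 142 nt, -0.2525 to 0.2186 for the TRA2A version of 726 nt, -4.61 to 0.9983 for that of 301 nt, -0.7171 to 3.688 for that of 312 nt, -0.2586 to 5.992 for the SREK1 exon of 124 nt and -0.9764 to 2.75 for the SRRM1 donor pair. The SRSF10 log2 fold change ranged from -0.03 to 0.171. No gene of the 8 was called under any setting, and KHDRBS1 was called under all of them. No paired analysis was possible because the lists carry no replicate numbers.

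With 3 libraries per group an exact test cannot reach a p below 0.1. Intervals of the rarely included exons rest on few reads, and the tables hold junction reads only, so transcript levels were read from single events.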
